A study of Mus musculus with 37 samples.

Results

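Matrix metalloproteinases (MMPs) and their tissue inhibitors (TIMPs) were followed as a group of 10 genes, which are Mmp2, Mmp3, Mmp9, Mmp12, Mmp13, Mmp14, Timp1, Timp2, Timp3 and Timp4. They were chosen by name, as 6 proteinases and 4 inhibitors, with earlier results of these data known, and no measured value enters the choice rule. All 10 were found among 30892 gene symbols in the cardiac fibroblast (CF) table and among 31053 genes in both single-cell tables, and 9 were found among 20158 symbols in the neonatal rat ventricular myocyte (NRVM) table, which does not list Mmp3.

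The series holds 37 samples. Immortalized mouse CFs of the C57BL/6 strain, wild type and carrying the SV40 antigen, received myocyte conditioned medium (MCndM) labelled vehicle, ENPP1, ATP, ENPP1+ATP or AMP for 24 or 48 hours, with 2 libraries in each of 10 groups. NRVM from wild type Sprague-Dawley rats received medium with the same 5 labels for 24 hours, with 3 libraries each. The labels name rat cells of a rat strain, although their organism field reads Mus musculus. Nonmyocytes of the injured heart were profiled as single cells on day 7 after the left anterior descending coronary artery had been tied off for good, with 1 library from ENPP1CKO and 1 from control C57BL/6 mice. The ENPP1CKO mice carried floxed ENPP1 alleles (ENPP1 fl/fl) and the tamoxifen-inducible Col1a2CreERT driver, which acts in cells that express type I collagen, and tamoxifen was given before and after injury. The control is labelled wild type, and the study describes control littermates. ENPP1 is a cell surface enzyme that splits ATP into AMP and pyrophosphate, and the study asked how it shapes the exchange between myocytes and nonmyocytes during repair. The study's methods describe n as biological replicates, but the labels do not say whether libraries of a group came from separate cultures, and p-values measure only the spread between these libraries. The CFs are 1 immortalized line, and the number of hearts behind each single-cell library is not given in the sources used here.

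MMPs are zinc-dependent proteinases that cut collagen, elastin and other matrix proteins, and most are secreted as inactive proforms. Mmp2 and Mmp9 are gelatinases, Mmp3 is a stromelysin, Mmp13 is the main collagenase of rodents, Mmp12 is the macrophage elastase, and Mmp14 is anchored in the plasma membrane, where it activates pro-Mmp2. TIMPs bind the active site of MMPs. Timp2 also bridges pro-Mmp2 to Mmp14 during activation, Timp3 is held in the matrix and inhibits ADAM proteinases as well, and Timp4 is known for its presence in heart and fat. In the infarcted heart these proteins govern the clearance of old matrix and the turnover of scar collagen.

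In the mouse genome (GRCm38), Mmp3 (chr9:7445822-7455975), Mmp12 (chr9:7344381-7369499) and Mmp13 (chr9:7272514-7283331) lie close together on the plus strand of chromosome 9. Mmp2 lies at chr8:92827291-92853420, Mmp9 at chr2:164940780-164955850 and Mmp14 at chr14:54431612-54445364. Timp1 (chrX:20870166-20874735), Timp3 (chr10:86300372-86349506) and Timp4 (chr6:115241892-115252205) each lie inside a synapsin gene (Syn1, Syn3 and Syn2) on the opposite strand. Timp2 lies at chr11:118301069-118355740 and overlaps Cep295nl on the same strand, with 0 of its exons inside that gene, and Mmp12 overlaps Mmp1b on the opposite strand, with 1 exon inside it. These overlaps were read against the whole span of the other gene, introns included, so whether exons of both genes overlap was not tested. Whether reads were counted by strand is not given in the sources used here. Only where exons of both genes overlapped could reads of a TIMP and of its synapsin, or of Mmp12 and Mmp1b, be confused. Mean levels of Syn1, Syn2 and Syn3 in the 10 CF groups ran from 0.104 to 4.99 CPM, the usual unit of counts relative to the size of a library.

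Of the 10 genes, 8 have a RefSeq promoter entry (GRCm38.p6). The AP-1 motif TGANTCA, which reads the same on both strands, was searched in the 250 bases before each start site, as was the GC box GGGCGG on both strands. TGANTCA was found for Mmp3, Mmp13 and the second of 2 listed starts of Mmp12, with no match at the first, and it is present in 6.75% of 32851 promoters. GGGCGG was found for Mmp14, Timp1, Timp2 and Timp3, and it is present in 32.7% of them. The last 60 bases before the start site that hold these matches are shown so that the letters behind each match can be read, with the matched letters in capitals and each strand read 5′ to 3′. They stand at chr9:7445762-7445821 (+) for Mmp3, chr9:7347314-7347373 (+) for the second listed start of Mmp12, chr9:7272454-7272513 (+) for Mmp13, chr14:54431538-54431597 (+) for Mmp14, chrX:20870106-20870165 (+) for Timp1, chr11:118355412-118355471 (-) for Timp2 and chr10:86300352-86300411 (+) for Timp3.
Mmp3: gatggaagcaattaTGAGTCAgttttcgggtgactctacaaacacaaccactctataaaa
Mmp12: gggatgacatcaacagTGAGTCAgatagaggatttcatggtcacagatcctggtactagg
Mmp13: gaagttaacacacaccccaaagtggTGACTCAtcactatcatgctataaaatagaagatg
Mmp14: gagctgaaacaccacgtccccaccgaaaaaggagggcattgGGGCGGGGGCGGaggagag
Timp1: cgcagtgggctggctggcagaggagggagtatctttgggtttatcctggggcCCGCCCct
Timp2: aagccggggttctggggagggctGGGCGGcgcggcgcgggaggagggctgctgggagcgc
Timp3: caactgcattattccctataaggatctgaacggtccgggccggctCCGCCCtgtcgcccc

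In Mmp3, Mmp12 and Mmp13 the first base of the motif stands 46, 44 and 35 bases before the start. In Mmp14 the GC box occurs back to back at 19 and 13 bases, and in Timp1, Timp2 and Timp3 it starts at 8, 37 and 15 bases. Among 14 other MMP genes with a promoter entry, 5 hold TGANTCA and 5 hold GGGCGG. A match of letters is not a measured binding site.

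Libraries held 32184799 to 115824659 counts in CFs and 13481389 to 16977980 in NRVM, and the deepest was vehicle 24 h library 1 of the CFs. The CF libraries expressed Col1a1 at 4018 CPM with vehicle at 24 hours (SD 172, n = 2), while the lineage marker Tcf21 stood at 2.82 CPM. The summed level of 10 fibroblast markers was 7149 to 7546 CPM with vehicle at 24 hours, 3550 to 3645 with ENPP1+ATP MCndM and 2786 to 3013 with AMP MCndM. At 48 hours it was 7043 to 7448, 3812 to 4023 and 4008 to 4288 CPM in the same order. The summed level of 10 macrophage markers was 15.8 to 18.3 CPM with vehicle and 34.5 to 88.4 CPM with ENPP1+ATP or AMP MCndM. Of 4 macrophage markers tested, 2 rose at 24 hours and 3 at 48 hours with ENPP1+ATP MCndM, while C1qa did not exceed 0.167 CPM in any CF library. Of 6 smooth muscle or pericyte markers tested, 4 rose with ENPP1+ATP (1 fell) and 4 with AMP at both times, and the summed level of the 10 listed went from 155 to 159 CPM with vehicle to 218 to 219.6 with ENPP1+ATP at 24 hours, and from 165 to 171 to 406 to 423 at 48 hours. Over all genes, 49.1% and 45.2% were called with ENPP1+ATP at 24 and 48 hours, and 52.8% and 44% with AMP. Cdkn1a, a cell cycle inhibitor read as a check of the CF response, stood at 123 CPM with vehicle and 479 with ENPP1+ATP at 24 hours. The part of these shifts in the MMP and TIMP results was not tested. In such bulk samples, fewer cells of a type and less RNA per cell cannot be told apart.

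Per kilobase of exon, the levels of the 10 genes in the 4 vehicle libraries of CFs were ranked. Timp2 stood highest at 193 ± 10.49 CPM per kilobase (SD, n = 4), followed by Mmp14 at 117 ± 5.03, Timp1 at 65.9 ± 6.03, Timp3 at 31.2 ± 1.08, Mmp2 at 7.31 ± 1.47 and Mmp3 at 0.420 ± 0.143. None of these 6 overlapped with the next in the order. Mmp9 stood at 0.0237, Mmp13 at 0.0124, Mmp12 at 0.0026 and Timp4 at 0.0019 CPM per kilobase, and each of these 4 overlapped with at least 1 other of them. Of the 6 proteinases Mmp14 thus had the highest level per kilobase in CFs, and its level lay between those of Timp2 and Timp1.

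**Figure D1:**
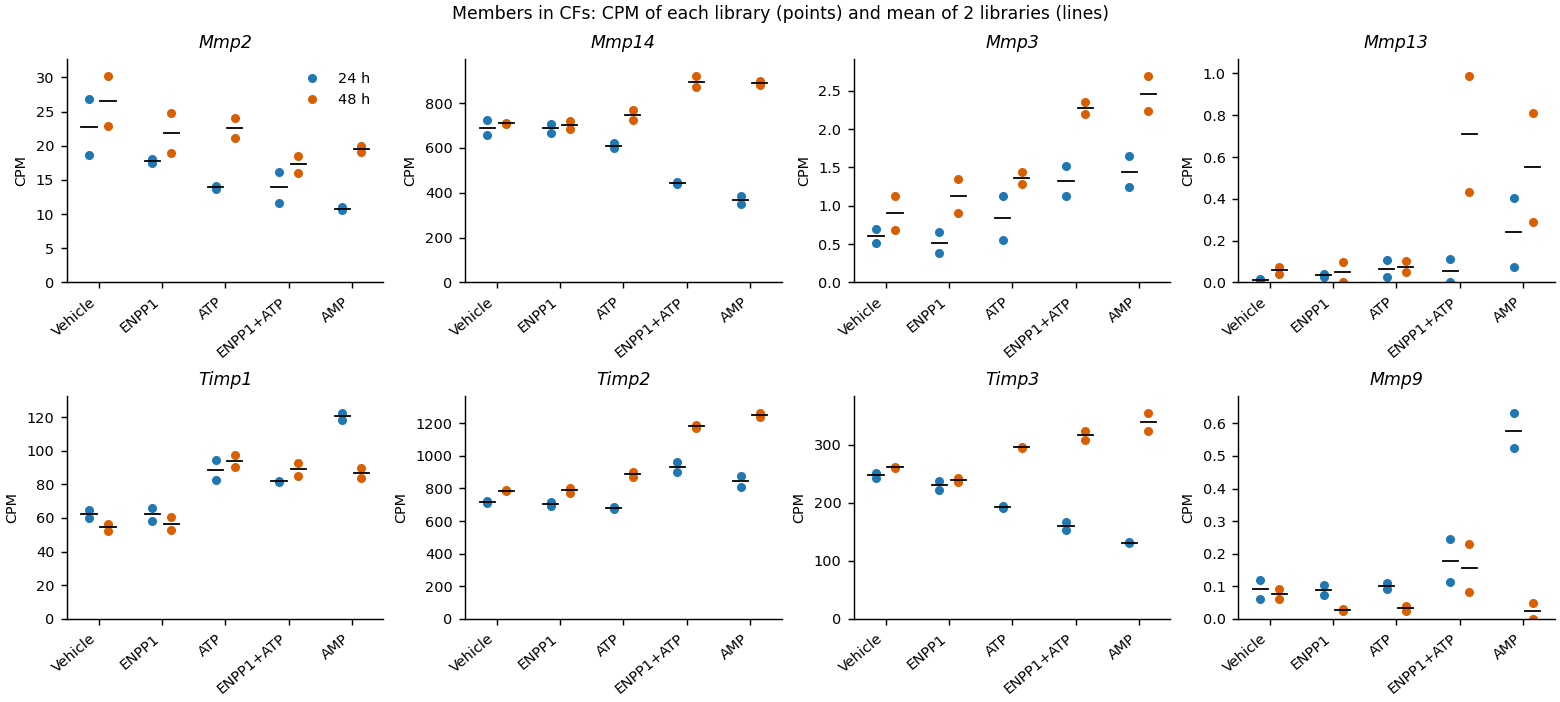
CPM of 8 of the 10 genes in CFs, with conditioned medium on the x axis, 24 h in blue and 48 h in orange, each point a library and each line the mean of 2 libraries. With ENPP1+ATP and AMP MCndM, Mmp14 and Timp3 lie below vehicle at 24 h and above it at 48 h, while Timp1 and Timp2 lie above it at both times.

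Mmp14 and Timp3 moved in opposite directions at the 2 times. Mmp14, the membrane-anchored collagenase that activates pro-Mmp2, measured 723 and 656 CPM in the vehicle libraries at 24 hours, 446 and 439 with ENPP1+ATP MCndM, and 352 and 383 with AMP MCndM. After 48 hours it measured 705 and 713 with vehicle, 870.5 and 920.0 with ENPP1+ATP, and 880.2 and 898 with AMP. Both libraries of both media were below vehicle at 24 hours and above it at 48 hours, without overlap. The share of all genes whose libraries did not overlap was not counted. Such separation, here and for the genes below in both cultures, is therefore only a description. By edgeR's quasi-likelihood test with Benjamini-Hochberg adjustment over 17879 genes, Mmp14 fell by 0.64 on the log2 scale with ENPP1+ATP at 24 hours (SE 0.0535, adjusted p = 3.35e-10) and rose by 0.34 at 48 hours (SE 0.0532, adjusted p = 1.08e-05). With AMP it fell by 0.91 (SE 0.0537, adjusted p = 4.95e-13) and rose by 0.33 (adjusted p = 1.7e-05).

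Timp3, the matrix-bound inhibitor, followed the same course. It measured 243 and 252 CPM with vehicle at 24 hours, 167 and 153 with ENPP1+ATP, and 132 and 131 with AMP. The 48 hour libraries gave 260.1 and 262 with vehicle, 308 and 324 with ENPP1+ATP, and 355 and 324 with AMP. Here too the groups did not overlap at either time. Timp3 fell by 0.63 with ENPP1+ATP (SE 0.0512, adjusted p = 2.04e-10) and by 0.91 with AMP at 24 hours (adjusted p = 2.13e-13). At 48 hours it rose by 0.27 with ENPP1+ATP (SE 0.0506, adjusted p = 7.77e-05) and by 0.38 with AMP (adjusted p = 1.08e-06). The test of the difference between the 48 and 24 hour effects, an interaction term in the same model, gave 0.98 for Mmp14 (SE 0.0755, adjusted p = 8.12e-10) and 0.90 for Timp3 (adjusted p = 1.17e-09) with ENPP1+ATP, and 1.23 (adjusted p = 1.3e-11) and 1.29 (adjusted p = 2.88e-12) with AMP. Among all genes tested, 30% passed this interaction test for ENPP1+ATP and 31.7% for AMP. These calls for Mmp14 and Timp3 in both media, at both times and in both interactions held under every alternative run, including the removal of any single library.

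Timp1 and Timp2 were higher at both times. Timp1, a secreted inhibitor of most MMPs, measured 60.2 and 65.0 CPM with vehicle at 24 hours, 81.5 and 82.3 with ENPP1+ATP, and 123 and 119 with AMP. After 48 hours the level was 52.4 and 56.5 with vehicle, 85.0 and 92.7 with ENPP1+ATP, and 83.7 and 89.5 with AMP. No treated library reached down to a vehicle library. It rose by 0.39 with ENPP1+ATP at 24 hours (SE 0.0741, adjusted p = 1.04e-04) and by 0.71 at 48 hours (SE 0.0751, adjusted p = 3.72e-08), and with AMP by 0.95 (adjusted p = 1.17e-10) and 0.67 (adjusted p = 8.43e-08).

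Timp2, the inhibitor that also takes part in the activation of pro-Mmp2, measured 720.2 and 711 CPM with vehicle at 24 hours, 964 and 903 with ENPP1+ATP, and 879 and 808 with AMP. After 48 hours it measured 788 and 784 with vehicle, 1173 and 1191 with ENPP1+ATP, and 1264 and 1239.7 with AMP. The treated libraries again stood wholly above vehicle. Timp2 rose by 0.38 with ENPP1+ATP (SE 0.0472, adjusted p = 2.22e-07) and by 0.24 with AMP at 24 hours (adjusted p = 1.44e-04), and by 0.59 (adjusted p = 1.8e-10) and 0.67 (adjusted p = 1.59e-11) at 48 hours. The increase of Timp2 was larger at 48 than at 24 hours with AMP (interaction 0.43, adjusted p = 1.54e-05).

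The interaction was weaker for the other TIMP values. With ENPP1+ATP it was 0.32 for Timp1 (adjusted p = 0.0257) and 0.21 for Timp2 (adjusted p = 0.0208), and with AMP it was -0.28 for Timp1 (adjusted p = 0.0449). Each of these 3 calls was lost when single libraries were left out. Without ENPP1+ATP 48 h library 2, vehicle 48 h library 1 or vehicle 24 h library 2, for example, the adjusted p for Timp1 with ENPP1+ATP was 0.132, 0.135 or 0.122, and 24 h ENPP1+ATP libraries 1 and 2 gave 0.082 and 0.0672. For Timp2 it ranged from 0.0503 to 0.13 without either vehicle library at 24 or 48 hours, ENPP1+ATP 24 h library 2 or ENPP1+ATP 48 h library 2. For Timp1 with AMP it ranged from 0.05 to 0.202 without any one of the AMP libraries, either 48 h vehicle library or vehicle 24 h library 1.

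**Figure D2:**
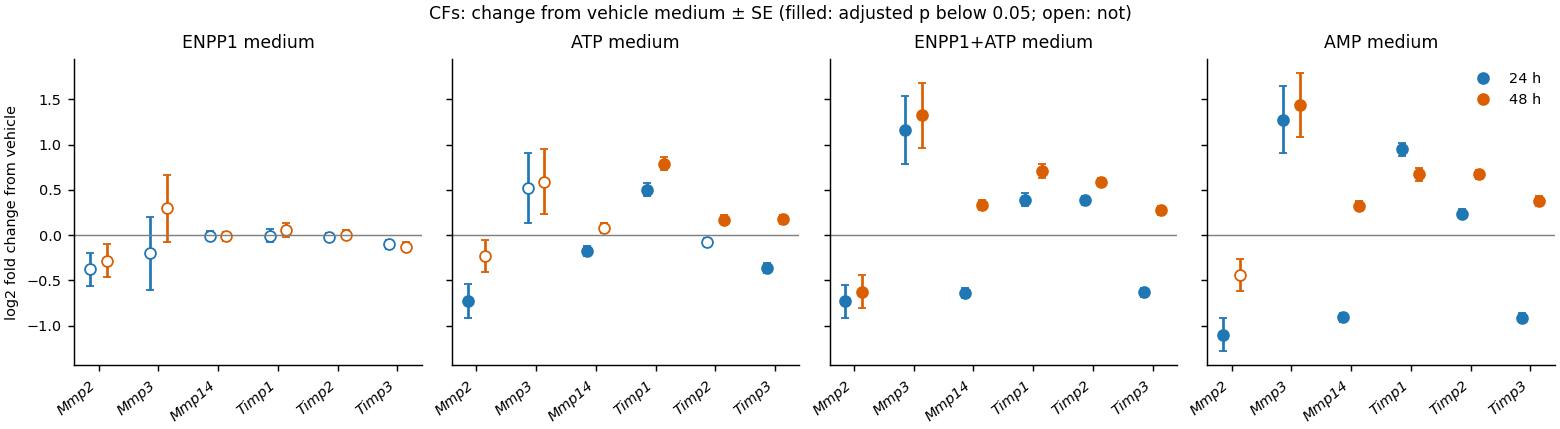
Log2 fold change from vehicle with its standard error for 6 genes in CFs, one panel for each conditioned medium, 24 h in blue and 48 h in orange, filled where the adjusted p was below 0.05. In the ENPP1 panel no point is filled, and in the ENPP1+ATP, AMP and ATP panels Mmp14 and Timp3 change sign between the times. With ATP the Mmp14 point at 48 h is not filled.

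The secreted gelatinase Mmp2 measured 26.8 and 18.7 CPM with vehicle at 24 hours, 16.2 and 11.6 with ENPP1+ATP, and 10.99 and 10.54 with AMP. The 48 hour libraries gave 30.2 and 22.9 with vehicle, 16.1 and 18.5 with ENPP1+ATP, and 19.1 and 20.03 with AMP. The vehicle libraries differed widely from each other, and all treated libraries lay below them. Mmp2 fell by 0.73 with ENPP1+ATP (SE 0.185, adjusted p = 0.00387) and by 1.10 with AMP (SE 0.185, adjusted p = 1.22e-04) at 24 hours, and by 0.62 with ENPP1+ATP at 48 hours (SE 0.183, adjusted p = 0.0114). With AMP at 48 hours the log2 change was -0.44 (SE 0.181, adjusted p = 0.0624), and it passed with DESeq2 (adjusted p = 0.0303), without a filter on low counts (1.31e-05), with only the groups compared (0.00601), with a replicate block (0.0125) and without vehicle 48 h library 2 (adjusted p = 0.0182). The difference between the AMP effects on Mmp2 at 48 and 24 hours was 0.66 (adjusted p = 0.0666), and it passed with DESeq2 (0.02), without a filter (1.63e-05), with only the groups compared (0.033), with a replicate block (0.0121) and without vehicle 24 h library 2 (0.00622) or vehicle 48 h library 1 (0.0221). The ENPP1+ATP call at 24 hours was lost without vehicle library 1 (-0.43, adjusted p = 0.0677), without ENPP1+ATP library 2 (-0.50, adjusted p = 0.0616) and when only the groups compared were fitted (adjusted p = 0.142). At 48 hours it was lost without ENPP1+ATP library 1 (adjusted p = 0.122) or vehicle library 1 (-0.41, adjusted p = 0.139).

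Mmp3, the stromelysin, was scarce in CFs. It measured 0.517 and 0.696 CPM with vehicle at 24 hours (59 and 29 counts), 1.13 and 1.52 with ENPP1+ATP (46 and 67 counts), and 1.65 and 1.24 with AMP (68 and 95 counts). After 48 hours the level was 1.12 and 0.686 with vehicle, 2.20 and 2.35 with ENPP1+ATP, and 2.69 and 2.24 with AMP. Treated libraries exceeded vehicle at both times. Mmp3 rose by 1.16 with ENPP1+ATP (SE 0.372, adjusted p = 0.0116) and 1.28 with AMP (SE 0.366, adjusted p = 0.00482) at 24 hours, and by 1.32 (SE 0.356, adjusted p = 0.00353) and 1.44 (SE 0.354, adjusted p = 0.00176) at 48 hours. At 24 hours the ENPP1+ATP call was lost without its library 2 (adjusted p = 0.112) or vehicle library 1 (adjusted p = 0.144), which also ended the AMP call (adjusted p = 0.0897). At 48 hours both were lost without vehicle library 2, with adjusted p of 0.0788 for ENPP1+ATP and 0.0503 for AMP.

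The collagenase Mmp13 and the gelatinase Mmp9 passed the filter on low counts only through the groups in which they were high. Mmp13 had 2 and 0 counts with vehicle at 24 hours, 0 and 5 with ENPP1+ATP, and 3 and 31 with AMP. After 48 hours it had 4 and 2 counts with vehicle, 43 and 16 with ENPP1+ATP, and 12 and 36 with AMP. Libraries of 1 group differed widely. Since the filter kept these genes for the groups in which they were high, their tests and the order of their libraries depend on that outcome. Neither is given weight here.

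Mmp9 had 7 and 5 counts with vehicle at 24 hours, 10 and 5 with ENPP1+ATP, and 26 and 40 with AMP. At 48 hours it had 5 and 3 counts with vehicle, 10 and 3 with ENPP1+ATP, and 2 and 0 with AMP. The filter kept Mmp9 for its AMP libraries at 24 hours, and all counts at 48 hours were 10 or fewer. The elastase Mmp12 had 0 to 4 counts and Timp4 had 0 to 3 counts in every CF library, so neither was tested.

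Without Mmp9 and Mmp13, 6 members were tested in CFs. With ENPP1+ATP at 24 hours 3 of them rose and 3 fell, where 49.1% of all genes were called, and the same numbers rose and fell with AMP, where 52.8% were called. At 48 hours 5 rose and 1 fell with ENPP1+ATP (45.2% of all genes called) and 5 rose with AMP (44% called).

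ENPP1 and ATP media served as controls for the combination. With ENPP1 MCndM no member passed at either time, and 0% of all genes were called in either comparison by edgeR, with 249 genes at 24 hours and 743 at 48 hours at an unadjusted p below 0.05, and 0 genes by DESeq2. For Mmp14 the log2 difference from vehicle at 24 hours was -0.00 (95% interval -0.11 to 0.10), and for Timp2 it was -0.02 (-0.12 to 0.07). These intervals rest on the SE and a normal approximation, which makes them narrower than the quasi-likelihood test allows. The libraries lay wholly below vehicle for Mmp2 (-0.38, unadjusted p = 0.0557) and Timp3 (-0.10, unadjusted p = 0.0534) at 24 hours and for Timp3 at 48 hours (-0.13, unadjusted p = 0.0201), with an adjusted p of 1 by edgeR in each case. With ATP MCndM, 1 gene rose and 3 fell of these 6 at 24 hours (11.1% of all genes called), and 3 rose at 48 hours (7.83% called). Timp1 measured 94.3 and 82.3 CPM with ATP at 24 hours and 97.6 and 90.5 at 48 hours, and rose by 0.50 (adjusted p = 4.17e-05) and 0.79 (adjusted p = 1.11e-07). Timp3 measured 190.1 and 195 CPM with ATP at 24 hours and fell by 0.36 (adjusted p = 1.89e-05).

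The other ATP calls were small or rested on few libraries. Mmp2 fell by 0.73 (adjusted p = 0.018) and Mmp14 by 0.18 (adjusted p = 0.0323) at 24 hours, and Timp2 rose by 0.17 (adjusted p = 0.0216) and Timp3 by 0.18 (adjusted p = 0.0292) at 48 hours. Timp3 thus also changed sign between the times with ATP, where no interaction was tested. Without either ATP 24 h library or without vehicle 24 h library 1, the adjusted p was 0.113 to 0.25 for Mmp2 and 0.0803 to 0.518 for Mmp14. Leaving out any of the 4 libraries compared at 48 hours gave 0.0503 to 0.239 for Timp2 and 0.113 to 0.19 for Timp3. With upper quartile scaling of all libraries the Timp3 call was lost as well (0.16, adjusted p = 0.0598).

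Compared directly with ATP MCndM, ENPP1+ATP MCndM gave lower Mmp14 (-0.47, adjusted p = 1.16e-07) and Timp3 (-0.27, adjusted p = 1.24e-04) and higher Timp2 (0.46, adjusted p = 2.02e-08) at 24 hours, when 43.9% of all genes were called. After 48 hours it gave higher Mmp14 (0.26, adjusted p = 3.21e-04) and Timp2 (0.42, adjusted p = 1.06e-07), with 39.5% of all genes called. Timp1 did not pass against ATP at either time, with log2 differences of -0.11 (adjusted p = 0.25) and -0.08 (adjusted p = 0.407), and 95% intervals of -0.26 to 0.04 and -0.23 to 0.06. Mmp2 did not pass at 24 hours (-0.00, adjusted p = 0.993) or at 48 hours (-0.39, adjusted p = 0.113), where it passed with a replicate block (0.0305), without a filter on low counts (2.83e-04) and with only the groups compared (0.0268). Mmp3 did not pass at either time (0.64, adjusted p = 0.175, and 0.73, adjusted p = 0.1), and at 24 hours it passed without ATP library 1 (0.0466). Timp3 did not pass at 48 hours (0.10, adjusted p = 0.137). These comparisons share their ENPP1+ATP libraries with those against vehicle. Between 24 and 48 hours of vehicle MCndM no member passed, and 4.88% of all genes did. The log2 difference was -0.20 for Timp1 (adjusted p = 0.153) and 0.14 for Timp2 (adjusted p = 0.109), and both passed when only these groups were fitted (adjusted p = 0.00975 and 0.0124), Timp1 also without a filter (0.0398) and Timp2 with DESeq2 (0.0244).

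Other proteinases of the family were read beside the members. Of 10 other MMPs tested in CFs, 4 rose and 4 fell with ENPP1+ATP at 24 hours (80% of the list, against 49.1% of all genes), and 3 rose and 1 fell at 48 hours (40%, against 45.2%). Mmp15, a membrane-type MMP, measured 5.26 CPM with vehicle (SD 0.199, n = 2) and 44.9 with AMP (SD 2.87) at 24 hours, and 6.95 and 87.3 CPM at 48 hours. With ENPP1+ATP, Mmp15 rose by 2.66 (SE 0.212, adjusted p = 2.36e-07) and 3.41 (SE 0.209, adjusted p = 2.05e-08). Mmp17, anchored by a lipid tail, rose by 1.82 (adjusted p = 1.62e-08) and Mmp16, another membrane-type MMP, fell by 1.18 (adjusted p = 6.75e-12) at 24 hours. Mmp19 fell by 0.56 (adjusted p = 4.97e-07) and 0.61 (adjusted p = 1.79e-07) at 24 and 48 hours, and Mmp11 rose by 0.45 at 48 hours (adjusted p = 9.73e-05).

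Of 30 regulators and related proteinases tested, such as plasminogen activators, ADAMs and ADAMTSs, 6 rose and 16 fell with ENPP1+ATP at 24 hours (73.3%, against 49.1% of all genes), and 9 rose and 9 fell at 48 hours (60% of the list, against 45.2%). Adamts1, which cuts the proteoglycans versican and aggrecan, fell by 2.13 (adjusted p = 9.72e-17) at 24 hours and by 1.20 (adjusted p = 5.31e-13) at 48 hours. Adamts5 fell by 1.30 (adjusted p = 3.38e-15), Adamts12 by 1.50 (adjusted p = 2.02e-06) and the proprotein convertase Pcsk6 by 1.50 (adjusted p = 4.92e-04) at 24 hours. At 48 hours Plau, the urokinase plasminogen activator, rose by 1.70 (adjusted p = 1.1e-09), Serpine2, an inhibitor of plasminogen activators, by 1.53 (adjusted p = 2.91e-14), and Adam19 by 1.17 (adjusted p = 3.55e-11).

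A list of 16 genes for the control of MMP promoters held transcription factors and the inhibitor Nfkbia. Of these, 10 rose and 5 fell with ENPP1+ATP at both times (93.8% of the list, against 49.1% and 45.2% of all genes). Fos, an AP-1 subunit, stood at 3.20 CPM with vehicle and 77.2 with AMP at 24 hours, and at 3.72 and 12.6 CPM at 48 hours. With ENPP1+ATP it rose by 3.60 (adjusted p = 3.3e-15) at 24 hours and by 1.58 (adjusted p = 9.22e-09) at 48 hours. The 5 that fell at both times were the AP-1 subunit Fosl2 (by 0.69 at 24 hours, adjusted p = 2.97e-10), Ets2, Runx2, Nfkb1 and Cebpb (by 0.97 at 24 hours, adjusted p = 6.04e-08). The factors named here were chosen after their values were seen. Fosl1 rose by 1.70 (adjusted p = 3.81e-11) and 2.80 (adjusted p = 4.68e-14), and Jun by 2.07 (adjusted p = 8.01e-16) and 0.95 (adjusted p = 2.53e-10).

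Across the 10 group means of CFs, the genes whose log2 levels were most like each member were named by Pearson's r among 17879 genes. For Mmp14 these were Fam13c (r = 0.99) and Map3k4 (0.988), for Timp2 Msh6 (0.994) and Tbx6 (0.986), and for Timp3 Lrp1 (0.992), the endocytic receptor that takes up MMP and TIMP complexes, and Ost4 (0.986). For Timp1 they were Lcn2 (0.956) and Smarcd2 (0.947), for Mmp2 Aaed1 (0.967) and Adamts10 (0.967), and for Mmp3 Rb1 (0.977) and Ogdhl (0.974). The 10 points share the vehicle groups and the shift between media, and these values are a description.

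In NRVM cultures, Timp3 was lower and Timp1 higher with the media labelled ENPP1+ATP, AMP and ATP. Timp3 measured 103, 108 and 118 CPM with vehicle, 55.5, 59.8 and 54.3 with ENPP1+ATP, 54.6, 48.9 and 56.0 with AMP, and 38.4, 48.2 and 46.6 with ATP. Each of these 9 libraries stood below each vehicle library. By edgeR's quasi-likelihood test over 13461 genes, Timp3 fell by 0.96 (adjusted p = 1.28e-10), 1.05 (adjusted p = 2.96e-11) and 1.30 (adjusted p = 5.1e-13) with ENPP1+ATP, AMP and ATP.

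Timp1 measured 28.2, 31.8 and 28.6 CPM with vehicle, 45.7, 56.0 and 43.5 with ENPP1+ATP, 32.3, 42.4 and 40.2 with AMP, and 61.5, 66.1 and 66.0 with ATP. The groups did not overlap with vehicle, although the lowest AMP library came close. Timp1 rose by 0.71 (adjusted p = 9.24e-06), 0.37 (adjusted p = 0.00551) and 1.13 (adjusted p = 1.32e-08) in the same order.

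Mmp14 measured 464, 515 and 548 CPM with vehicle, 380.2, 378 and 389 with ENPP1+ATP, 337, 343 and 384 with AMP, and 239.6, 275 and 264 with ATP. It was lowest with ATP, and fell by 0.41 with ENPP1+ATP (adjusted p = 3.03e-04), 0.52 with AMP (adjusted p = 3.64e-05) and 0.97 with ATP (adjusted p = 5.77e-08). Mmp2, by contrast, differed in direction between media. It measured 567, 549.7 and 569 CPM with vehicle, 465, 476 and 479.7 with ENPP1+ATP, and 652, 662 and 689 with AMP, and fell by 0.25 with ENPP1+ATP (adjusted p = 2.6e-06) and rose by 0.25 with AMP (adjusted p = 2e-06). With ATP it measured 564, 607 and 646 CPM, overlapping with vehicle, and its rise of 0.11 (adjusted p = 0.0224) was lost without ATP library 3 (adjusted p = 0.247), vehicle library 1 (0.0683) or vehicle library 2 (0.092).

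Timp2 measured 454, 467 and 456 CPM with vehicle, 429, 449 and 431 with ENPP1+ATP, 497, 494 and 519 with AMP, and 469, 534 and 510.2 with ATP. It rose by 0.13 with AMP (adjusted p = 0.00646) and 0.14 with ATP (adjusted p = 0.00498, and 0.0734 without ATP library 2). With ENPP1+ATP the difference was -0.07 (adjusted p = 0.137). Mmp12 had 0 to 20 counts per library and did not pass in any comparison, and Mmp9, Mmp13 and Timp4 were too low to be tested, with at most 12 counts in a library.

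Of 6 genes tested in NRVM, 1 rose and 3 fell with ENPP1+ATP (56% of all genes called), 3 rose and 2 fell with AMP (57.2% called), and 3 rose and 2 fell with ATP (59.9% called). With ENPP1 medium none passed, and 0% of all genes were called by edgeR, with 693 at an unadjusted p below 0.05 and 1 by DESeq2. Against ATP, ENPP1+ATP gave lower Mmp2 (-0.36, adjusted p = 4.27e-09), Timp1 (-0.41, adjusted p = 0.00239) and Timp2 (-0.21, adjusted p = 1.2e-04) and higher Mmp14 (0.56, adjusted p = 6.59e-05) and Timp3 (0.35, adjusted p = 0.00182), with 27.5% of all genes called.

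**Figure D3:**
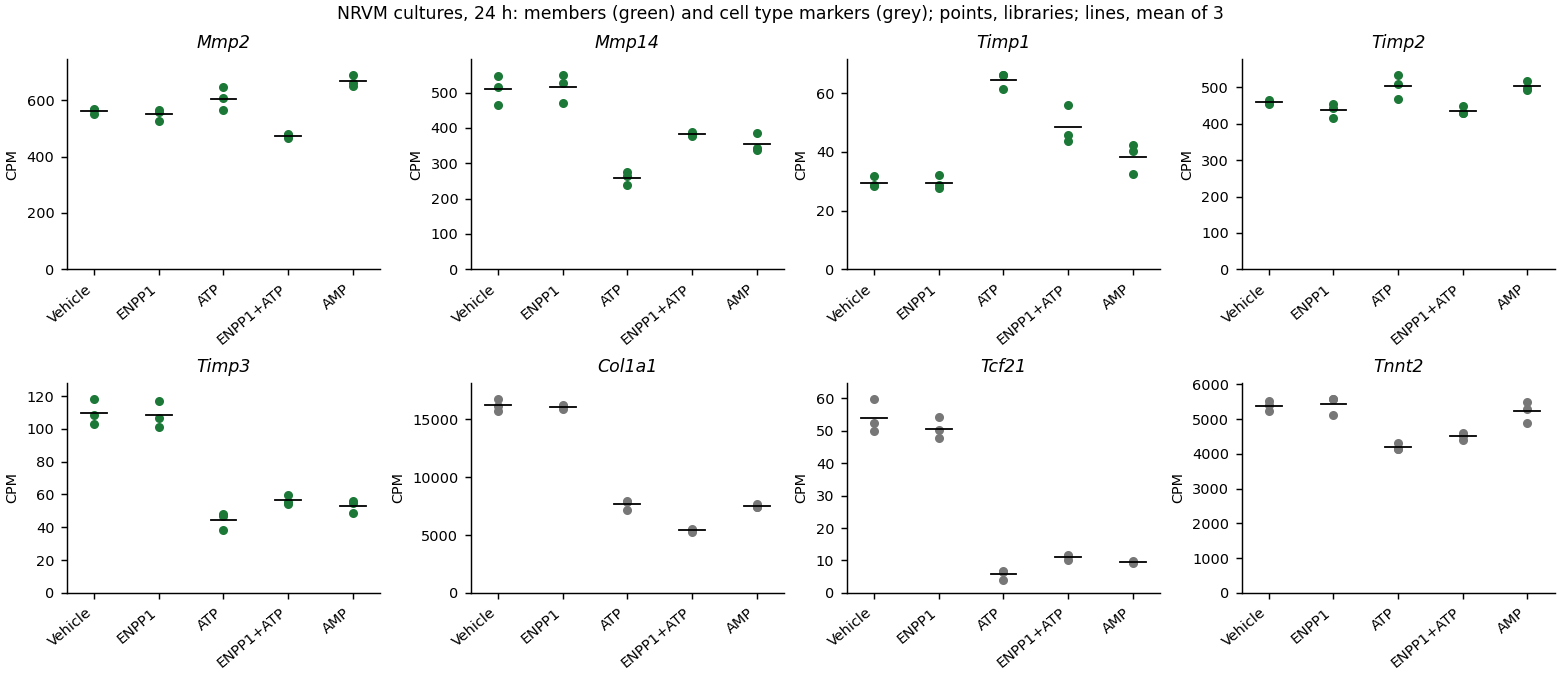
CPM of 5 members (green) and of the fibroblast genes Col1a1 and Tcf21 and the myocyte gene Tnnt2 (grey) in NRVM cultures after 24 h, with the medium on the x axis, each point a library and each line the mean of 3. Timp3 and both fibroblast genes are lower with ATP, ENPP1+ATP and AMP, and Timp1 is higher.

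Fibroblast markers moved with these results. The NRVM libraries expressed Col1a1 at 16217 CPM with vehicle and Tcf21 at 54.0 CPM, so the cultures held fibroblast RNA beside that of myocytes. The summed level of 9 fibroblast markers was 23248 to 24626 CPM with vehicle, 7890.5 to 8274 with ENPP1+ATP, 11085 to 11867 with AMP and 10128 to 11419 with ATP, and of the 9, 6 fell with ENPP1+ATP, 4 fell and 2 rose with AMP, and 5 fell with ATP. Of 9 endothelial markers, 2 rose with ENPP1+ATP, 5 with AMP and 6 with ATP, and 1 fell with each of the first 2 media. Over all genes 56%, 57.2% and 59.9% were called in these comparisons. The summed level of the endothelial markers was 31.9 to 38.8 CPM with vehicle and 42.2 to 106 with these 3 media. Of 5 macrophage markers, 2, 3 and 3 rose in the same order, with a summed level of 9.07 to 9.43 CPM with vehicle and 12.1 to 22.4 with these media. The summed level of 10 cardiomyocyte markers was 32031 to 33079 CPM with vehicle, 27555 to 28647 with ENPP1+ATP, 31576 to 33310.3 with AMP and 18624 to 19845 with ATP. Of these 10 markers, 3 rose and 5 fell with ENPP1+ATP, 4 rose and 3 fell with AMP, and 1 rose and 8 fell with ATP. The part of these changes in the levels of Mmp14, Timp1 and Timp3 was not tested. Among 6 other MMPs tested in NRVM, 5 fell and none rose with ENPP1+ATP (83.3% of the list, against 56% of all genes), of which Mmp16 fell by 1.15 (adjusted p = 0.00928), Mmp19 by 0.93 (adjusted p = 5.24e-13), Mmp17 by 0.80 (adjusted p = 1.8e-06) and Mmp23 by 0.69 (adjusted p = 6.79e-12). Of 32 regulators, 5 rose and 19 fell with ENPP1+ATP (75% of the list, against 56% of all genes). Among them the sheddase Adam8 rose by 1.87 (adjusted p = 2.71e-09). Adamts15 fell by 1.66 (adjusted p = 9.33e-11), Lrp1 by 1.51 (adjusted p = 7.08e-11) and Adamts2 by 1.34 (adjusted p = 1.15e-24).

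In the injured heart, the members were divided among cell classes. After removal of predicted doublets, 7255 ENPP1CKO and 5240 control cells were kept, with median counts of 3367 and 3701. With 1 library per genotype there is no test, intervals cover counting error only, and a genotype effect cannot be told apart from a difference between libraries. Classes were named from marker genes. In ENPP1CKO and control there were 3722 and 1860 fibroblast-like, 2077 and 2568 macrophage-like, 934 and 192 endothelial-like and 16 and 97 neutrophil-like cells, beside other classes. The class called smooth muscle or pericyte-like had 158 and 77. A cluster of 29 and 116 cells led by Saa3 and Clu expressed fibroblast markers together with Lgals7 and Dmkn, and was left unnamed. The libraries share 68 barcode sequences, of which 62 were kept in both and 23 of these had the same class. Enpp1, the deleted gene, gave 473 counts in fibroblast-like cells of ENPP1CKO (28.7 CPM) and 1347 in those of control (130 CPM).

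**Figure D4:**
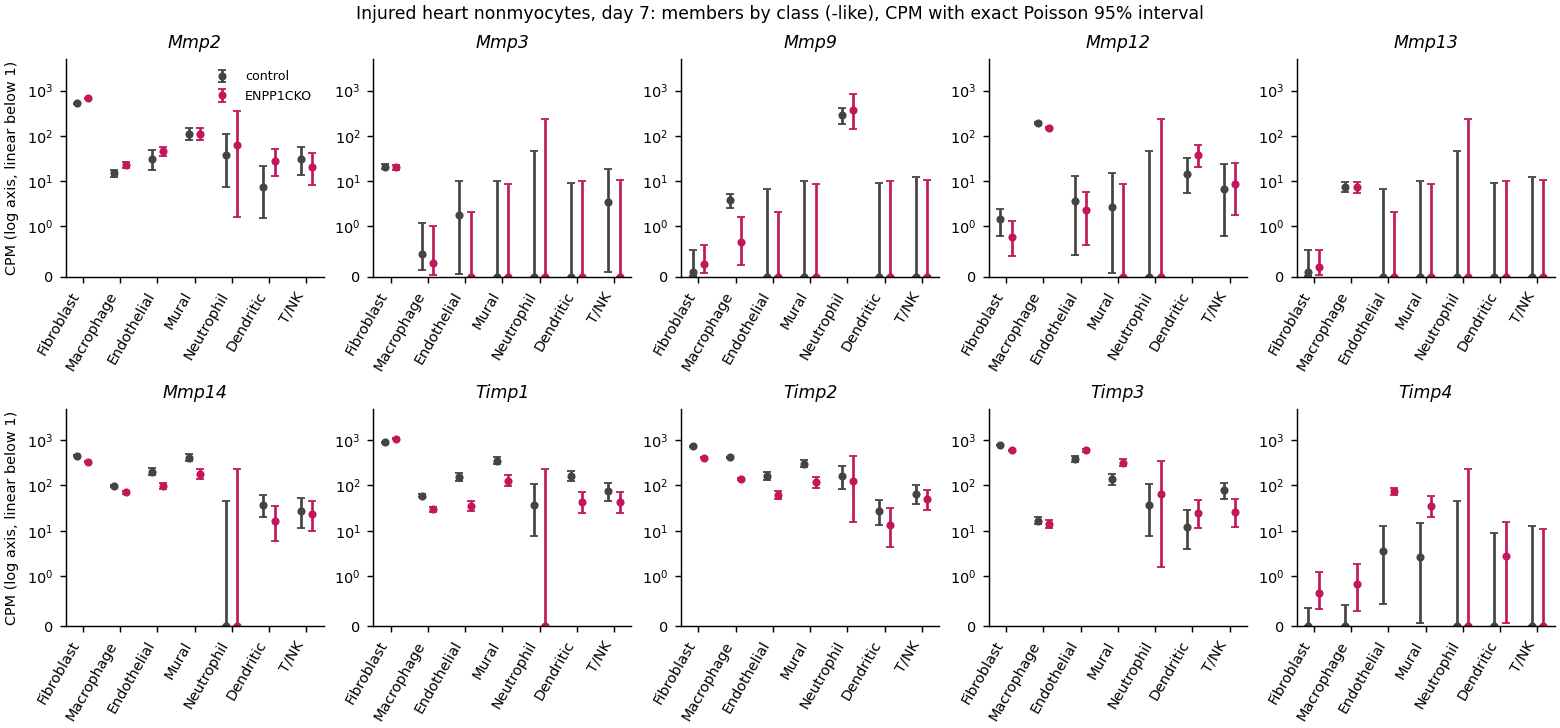
CPM of the 10 members in 7 cell classes of the injured heart on day 7, control in grey and ENPP1CKO in magenta, on an axis that is logarithmic above 1 and linear below, with exact Poisson 95% intervals (Mural stands for smooth muscle or pericyte-like). Among these 7 classes, Mmp2, Mmp3 and Timp1 are highest in fibroblast-like cells, and Mmp12 and Mmp13 in macrophage-like cells. Mmp9 is highest in neutrophil-like cells and Timp4 in endothelial-like cells of the ENPP1CKO library. The unnamed cluster, in which control Timp1 stood above the fibroblast-like level, is not plotted.

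Fibroblast-like cells held most molecules of 6 members. In ENPP1CKO and control they held 96.6% and 91.4% of Mmp2 molecules, 99.1% and 97.3% of Mmp3, 87.0% and 74.2% of Mmp14, 96.4% and 65.8% of Timp1, 84.5% and 62.9% of Timp2, and 87.2% and 89.1% of Timp3. In control, a further 28.3% of Timp1 came from the unnamed cluster, which expressed Timp1 at 3478 CPM. A Timp1 molecule was seen in 78.2% and 82.8% of fibroblast-like cells and in 9.20% and 15.5% of macrophage-like cells. Collagen and Dcn transcripts in macrophage-like cells stood at 1.66% and 1.97% of their fibroblast-like level, while Timp1 stood at 29.8 and 60.1 CPM there, against 1085 and 895 CPM in fibroblast-like cells.

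Macrophage-like cells held the elastase and the collagenase. Of Mmp12 molecules 97.0% and 98.4% lay in macrophage-like cells of ENPP1CKO and control, as did 94.6% and 98.5% of Mmp13 molecules (53 and 65 counts). Mmp12 was seen in 7.51% and 9.58% of macrophage-like cells, against 0.349% and 0.806% of fibroblast-like cells, whose median depth was greater (4046 and 5134.5 counts, against 3273 and 3243). Mmp9 molecules lay in neutrophil-like cells (6 and 23 counts, 381 and 283 CPM) and macrophage-like cells (5 and 33 counts), with 4 and 1 counts in fibroblast-like cells and 0 and 5 in the unnamed cluster. Timp4 was found in endothelial-like cells with 130 counts in ENPP1CKO and 2 in control, and it had 0 counts in control fibroblast-like cells. In smooth muscle or pericyte-like cells Timp4 stood at 35.7 and 2.66 CPM (15 and 1 counts). In CFs in culture, by comparison, Mmp12, Mmp13, Mmp9 and Timp4 were the 4 lowest genes per kilobase.

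In fibroblast-like cells the levels in ENPP1CKO and control were 674 and 522 CPM for Mmp2, 336 and 452 for Mmp14, 1085 and 895 for Timp1, 409.8 and 741 for Timp2, 605 and 787 for Timp3, and 20.1 and 20.8 for Mmp3, whose log2 ratio was -0.05, or -0.60 with cells thinned to 1000 counts. Timp2 had the lowest ratio among them that rested on over 1000 counts, with a log2 ratio of -0.85 (95% counting interval -0.90 to -0.81). Mmp14 stood at -0.43 (-0.48 to -0.37), Timp3 at -0.38 (-0.42 to -0.34) and Mmp2 at 0.37 (0.32 to 0.42). Timp1 stood at 0.28 (0.24 to 0.31), and at -0.08 when the unnamed cluster was counted with these cells, so its direction depends on that choice. Timp2 was lower in each of the 4 fibroblast-like clusters, by -0.90, -0.88, -0.88 and -1.01. Mmp2 was higher in 3 of them and lower in the cluster led by Acta2 (-0.44, -0.61 to -0.27), a gene of myofibroblasts. That cluster held 153 of the ENPP1CKO and 417 of the control fibroblast-like cells, and the largest held 2243 and 737. In the 4 clusters, with the one led by Acta2 last, Mmp14 stood at -0.16, -0.05, -0.44 and -0.54, Timp3 at -0.64, -0.43, -0.03 and 0.03, and Timp1 at 0.46, 0.32, 0.97 and -0.02. A Timp2 molecule was seen in 73.4% and 91.7% of fibroblast-like cells, and in 33.0% and 52.0% after thinning each cell to 1000 counts.

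Timp2 also stood lower in macrophage-like cells of ENPP1CKO. Timp2 measured 139 CPM against 422 CPM for control, a log2 ratio of -1.61 (-1.71 to -1.50). A Timp2 molecule was seen in 34.1% and 59.4% of these cells, and in 12.3% and 30.3% after thinning. The ratio was -1.55, -1.57 and -1.62 in 3 clusters and -0.31 (-0.74 to 0.08) in the remaining cluster, which held 76 ENPP1CKO and 915 control cells. Timp1 stood at 29.8 and 60.1 CPM (-1.01, -1.25 to -0.78), but at -0.44 without that cluster and at -1.84 after subtracting free RNA. Mmp14 stood at 70.7 and 96.9 CPM (-0.46, -0.62 to -0.30), and Mmp12 at 151 and 190.4 CPM (-0.33, -0.44 to -0.22, and -0.56 with cells thinned to 1000 counts). Mmp13 stood at 7.39 CPM in both (-0.00, -0.55 to 0.54). Mmp9 had 5 and 33 counts (-2.43, -4.14 to -1.06).

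**Figure D5:**
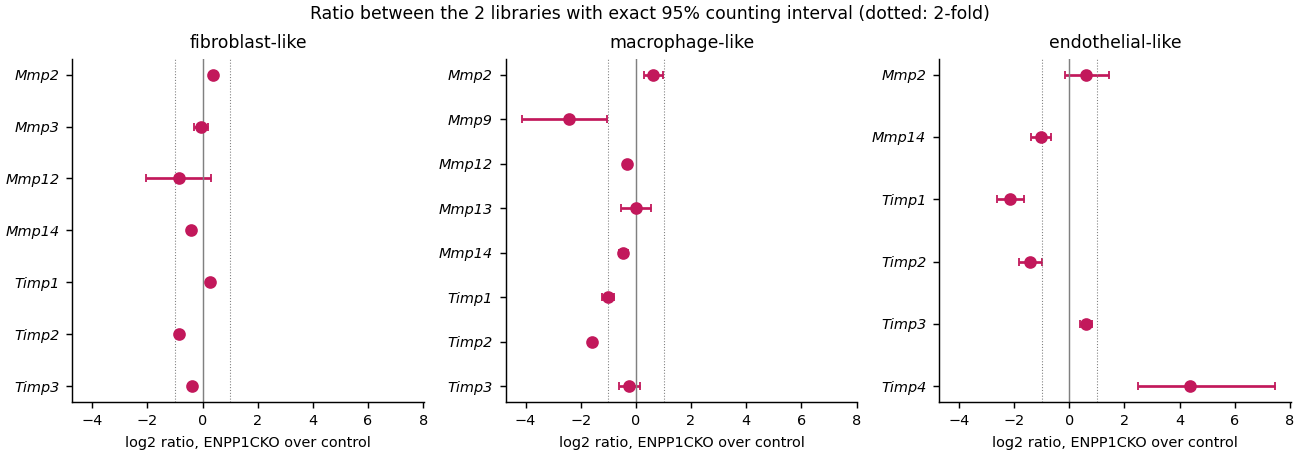
Log2 ratio of ENPP1CKO over control with its exact 95% counting interval for members that had 20 or more counts over both libraries, in 3 cell classes, with dotted lines at a 2-fold difference. Timp2 lies left of 0 in every panel, and Timp4 lies furthest right among endothelial-like cells, where its control value rests on 2 counts.

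Endothelial-like cells carried Timp3 at 595 and 388 CPM in ENPP1CKO and control (0.62, 0.40 to 0.84, and 0.27 with every cell thinned to 1000 counts). Timp4 stood at 74.8 and 3.57 CPM (130 and 2 counts), with 2.51 as a lower bound of its log2 ratio by counting error. Timp1, Timp2 and Mmp14 stood lower in ENPP1CKO, at 35.1 and 154 CPM (-2.13, -2.63 to -1.64), 62.7 and 166 CPM (-1.41, -1.82 to -0.99) and 99.5 and 204 CPM (-1.03, -1.38 to -0.68). The 192 control cells had a median of 2602.5 counts, against 1474 in the 934 ENPP1CKO cells. With predicted doublets kept, Timp1 stood at -0.24, Timp2 at -0.98 and Mmp14 at -0.78, and after subtracting free RNA Timp1 stood at -4.62. Free RNA, read from collagen transcripts, amounted to 2.76% and 2.97% of the fibroblast-like level in ENPP1CKO and control. Within the larger endothelial-like cluster (869 and 162 cells) Timp3 stood at 1.08, and Timp4 was again higher in ENPP1CKO, against the same 2 control counts. In the cluster led by Ccl21a, a lymphatic gene, Timp3 stood at -0.25 (-0.65 to 0.15) and Timp4 had 0 counts in both libraries. In smooth muscle or pericyte-like cells Timp3 also stood higher in ENPP1CKO (321 and 136 CPM), and Timp2 lower (119 and 304 CPM). The summed level of 10 fibroblast markers in this class was 13028 and 16587 CPM, above that of its own 10 markers (9459 and 7443 CPM), and their part in these values was not tested.

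Of members with at least 20 counts, 0 of 7 passed a 2-fold difference in fibroblast-like cells, where 5.41% of 12761 genes did, 3 of 8 in macrophage-like cells (6.05% of 10966) and 4 of 6 in endothelial-like cells (10% of 8083). The 3 include Mmp9 (5 and 33 counts) and the 4 include Timp4 (130 and 2 counts). Both reached 20 counts through 1 library only, so they are given no weight here. The median log2 ratio was -0.38 for members and 0.01 for all genes in fibroblast-like cells, -0.39 and -0.13 in macrophage-like cells, and -0.22 and -0.04 in endothelial-like cells. With TMM scaling the median of all genes moved to -0.02 for macrophage-like cells and to 0.06 for endothelial-like cells, and the members past 2-fold became 2 and 3. With predicted doublets kept, 1 of 6 members passed 2-fold in endothelial-like cells and their median was 0.21, and 4 of 8 passed in macrophage-like cells with a median of -0.73. After subtracting free RNA, 5 of 8 macrophage-like values passed, 2 of them higher in ENPP1CKO. Without the macrophage-like cluster of 76 and 915 cells, 1 of 7 passed. In endothelial-like cells 480 genes were past 2-fold higher and 330 lower, and 577 and 233 with TMM scaling. Among the other MMPs, Mmp23 was the most abundant, at 399 and 489 CPM in fibroblast-like cells, and Mmp19 stood at 26.9 and 46.6 CPM in macrophage-like cells.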

How the data were processed

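The deposited values were gene counts: the authors' tables hold raw counts per gene for 20 CF and 15 NRVM libraries, and counts of molecules in each cell by gene for 2 single-cell libraries. The submitters' processing notes name STAR 2.5.3a, Cell Ranger and the builds mm10 and rn6. The counter, its strand setting and the Cell Ranger version are not given in the sources used here. Columns of per-sample values that match no sample numbered 0.

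Bulk counts were filtered for low values, scaled by TMM and fitted jointly over all groups of a cell type with the quasi-likelihood test of edgeR 4.0.16 (limma 3.58.1, R 4.3.3), with Benjamini-Hochberg adjustment over all genes tested and a threshold of 0.05. CPM used TMM library sizes. DESeq2 1.42.0, upper quartile scaling, no filter, the compared groups alone, a replicate block and leaving out each library were alternatives. Scripts were tested on simulated data.

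Cells were kept if they had 200 genes or more and no more than 20% of counts from mitochondrial genes, predicted doublets (151 in ENPP1CKO and 69 in control) were removed, and cells were clustered with scanpy 1.11.5 and leidenalg 0.10.2 at resolution 0.5, with Python 3.11.15. Clusters were named from marker lists, and 1 was left unnamed by a rule added after seeing the data. Counts were summed per class and library. Intervals are 95% and cover counting error only.

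The members and lists were chosen with earlier results of these data known. All 10 members are named. Other MMPs and regulators are named for up to 4 of the largest called changes per list with ENPP1+ATP, and the 2 most alike genes per member by Pearson's r.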

Additional observations from a re-analysis of the deposited data

Results flagged for a closer look

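The effects of 2 media on CFs differed between 24 and 48 hours by the interaction test of edgeR, given as the log2 effect at 48 hours minus that at 24 hours. With ENPP1+ATP MCndM these differences were 0.98 for Mmp14 (adjusted p = 8.12e-10), 0.90 for Timp3 (adjusted p = 1.17e-09), 0.32 for Timp1 (adjusted p = 0.0257) and 0.21 for Timp2 (adjusted p = 0.0208). With AMP MCndM they were 1.29 for Timp3 (adjusted p = 2.88e-12), 1.23 for Mmp14 (adjusted p = 1.3e-11), 0.43 for Timp2 (adjusted p = 1.54e-05), and -0.28 for Timp1 (adjusted p = 0.0449). The calls for Timp1 with both media and for Timp2 with ENPP1+ATP were lost without single libraries, with adjusted p up to 0.135 and 0.202 for Timp1 and 0.13 for Timp2. For Mmp9 with AMP the fitted difference was -4.38, from at most 40 counts in a library. Mmp9 was kept by the filter for its high AMP libraries at 24 hours, so that test carries no weight.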

How the results depend on the processing

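Of 49 member calls in CFs, which include those of Mmp9 and Mmp13 that carry no weight, 19 were lost under at least 1 alternative, and of 19 in NRVM, 2 were lost. No called member changed direction. Apart from leaving out libraries, counts of called genes moved by over 1.5 times in 5 CF cases (61 did not), 3 NRVM cases (22 did not) and 1 single-cell case (22 did not), and the cause was not tested. Without a filter on low counts, 26 genes were called for ENPP1 at 24 hours and 180 at 48 hours in CFs, and 14 in NRVM. With only the compared groups, 1 gene was called for ENPP1 at 48 hours, 2590 for ATP at 48 hours and 2485 between 48 and 24 hours of vehicle in CFs, and 5 for ENPP1 in NRVM, where DESeq2 called 1. Without the macrophage-like cluster of 76 ENPP1CKO and 915 control cells, 331 genes passed 2-fold in macrophage-like cells.

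Leaving out 1 library moved 13 CF counts by over 1.5 times and 47 by less, and every such removal did so for ATP at both times and for the vehicle times. Fewer samples enter these fits. Leaving out 1 library at a time, the CF calls at 24 hours ranged from 7216 to 7694 for ENPP1+ATP (8787 with all libraries), 7813 to 9180 for AMP (9437), 920 to 1205 for ATP (1983), 0 to 0 for ENPP1 and 6141 to 6813 for ENPP1+ATP against ATP (7846). At 48 hours they ranged from 6455 to 7523 (8076), 6071 to 7110 (7866), 646 to 929 (1400), 0 to 129 and 5574 to 6584 (7059) in the same order. They were 235 to 440 between the vehicle times (873), and 4286 to 5427 (5365) and 4500 to 5828 (5666) for the ENPP1+ATP and AMP interactions. In NRVM they ranged from 6892 to 7048 for ENPP1+ATP (7538), 7078 to 7435 for AMP (7703), 7452 to 7551 for ATP (8067), 0 to 0 for ENPP1 and 3000 to 3383 for ENPP1+ATP against ATP (3708).

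Nothing in the labels ties libraries with the same replicate number beyond that number. A replicate block gave 8933 calls for ENPP1+ATP, 9522 for AMP and 2129 for ATP at 24 hours in CFs, and 7524 for ENPP1+ATP in NRVM. A crossed pairing, chosen after seeing the data, gave 2091 for ATP at 24 hours. The block added Mmp2 calls with AMP at 48 hours (adjusted p = 0.0125), for ENPP1+ATP against ATP at 48 hours (0.0305) and in the AMP interaction (0.0121), as did the absence of a filter (1.31e-05, 2.83e-04 and 1.63e-05) and fits of only the groups compared (0.00601, 0.0268 and 0.033). Low counts limit Mmp9, Mmp12, Mmp13 and Timp4 in both cultures, and 1 library per genotype limits all single-cell values.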
